A study of Mus musculus with 24 samples.

Results

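Liver RNA of wild-type mice on a leucine-devoid diet was compared between 2 circadian times, CT03 and CT15. The comparison holds 6 of the 24 libraries of the series, 3 mice per time, chosen by genotype, diet and time alone, and it covers every gene that the table for this pair of groups lists. The series crosses wild type (WT) and GCN2 knockout (KO) mice with a control diet (Control) and a diet devoid of leucine (LeuD) and with both times. All 6 mice here were WT on LeuD, and they differed in the time of death, CT03 or CT15. Per the labels' protocols, the mice were housed singly with free access to food, spent 2 days on the control diet under a 12-h light-dark cycle, and changed diet at the onset of the dark phase. The lights went off for good 24 h later, and after 8 days of darkness livers were taken under red light. CT03 therefore lies in the subjective day, when mice rest, and CT15 in the subjective night, when mice are active and feed. The sources used here do not give strain, sex or age, and food intake was not analysed here. The labels call the samples biological replicates, so the p-values measure the spread between these mice. Livers are bulk tissue, in which fewer cells of a type and less RNA per cell cannot be told apart.

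The circadian clock of liver cells is a feedback loop of transcription. The activators BMAL1 (Arntl), CLOCK and NPAS2 bind E-box sequences and switch on the genes of their own repressors, the period and cryptochrome proteins. A second loop runs through RORE sequences, where REV-ERB proteins (Nr1d1, Nr1d2) repress and ROR proteins activate Arntl and Nfil3. Another runs through D-box sequences, which DBP, TEF and HLF activate and NFIL3 represses. In the liver these loops and the daily feeding rhythm act together on bile acid, lipid, glucose, amino acid and drug metabolism. Lack of an essential amino acid is sensed by the kinase GCN2 (Eif2ak4), which phosphorylates the translation factor eIF2 and thereby induces ATF4 and its target genes, the integrated stress response.

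Stretches of promoter show the elements that the clock results refer to. They are taken from RefSeq (build GRCm38.p6) and run 5′ to 3′ on the strand of the gene, and capitals mark the matches. Ciart and Tef are shown for E-boxes (CACGTG), Per1 for an E-box and a D-box, Per3 for a pair of D-boxes, Nfil3 for a RORE, and Cyp2a5 and Cyp2a4 for the D-box of a drug-metabolizing gene. The stretches are Ciart chr3:95882249-95882358, minus strand; Tef chr15:81802513-81802582, plus strand; Per1 chr11:69098769-69098948, plus strand; Per3 chr4:151044801-151044885, minus strand; Nfil3 chr13:52981040-52981099, minus strand; Cyp2a5 chr7:26835239-26835308, plus strand; and Cyp2a4 chr7:26307092-26307161, plus strand.
Ciart: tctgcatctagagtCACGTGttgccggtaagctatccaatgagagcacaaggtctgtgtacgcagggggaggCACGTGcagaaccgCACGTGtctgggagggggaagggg
Tef: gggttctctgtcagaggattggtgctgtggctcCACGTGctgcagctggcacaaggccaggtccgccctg
Per1: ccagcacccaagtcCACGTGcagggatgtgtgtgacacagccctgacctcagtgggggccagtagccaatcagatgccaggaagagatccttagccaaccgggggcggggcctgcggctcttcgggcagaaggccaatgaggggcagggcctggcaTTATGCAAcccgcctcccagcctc
Per3: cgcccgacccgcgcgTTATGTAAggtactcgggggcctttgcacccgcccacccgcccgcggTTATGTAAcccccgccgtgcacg
Nfil3: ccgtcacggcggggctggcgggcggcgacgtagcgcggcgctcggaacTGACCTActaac
Cyp2a5: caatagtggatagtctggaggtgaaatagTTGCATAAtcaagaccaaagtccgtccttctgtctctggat
Cyp2a4: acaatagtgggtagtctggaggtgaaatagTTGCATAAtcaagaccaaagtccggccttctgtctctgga
The Cyp2a5 and Cyp2a4 stretches carry the same D-box at nearly the same place, 71 and 70 bases before the annotated start. Over the 250 bases before the start, a D-box (TTATGTAA or TTATGCAA, both strands) was found in 1.35% of the 10850 listed genes with a window, in 4.86% of those called higher at CT15 and in 1.32% of those called lower. The E-box was found in 9.56%, 13.1% and 10% of the same sets, and the RORE (TAGGTCA, both strands) in 2.26%, 2.54% and 3.29%. Each motif was searched by itself, whether or not another overlapped it. A match is a description of the letters and not a site shown to be bound.

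Depth was 36505276 to 44154324 reads over the listed genes of a library. Values are counts divided by the size factor of the library (normalized counts), always given in the order of replicates 1, 2 and 3. Changes are CT15 minus CT03 in log2(normalized count + 1), given ± SE, and the threshold for a call was an adjusted p of 0.05 (limma, Benjamini-Hochberg adjustment over all genes). Of 14825 genes tested, 1424 were called (9.61%), of which 640 were higher at CT15 (4.32%) and 784 lower (5.29%). In the plot of change against level these genes lie on both sides of 0. The median change of all genes was 0.0099, with 7591 changes positive and 7234 negative. The groups did not overlap for 31.3% of all genes, with every CT15 mouse above for 15.1% and every CT15 mouse below for 16.2%. The first principal component, 46.0% of the variance, separated the times, at -35.0 to -28.7 for CT03 and 15.2 to 58.0 for CT15. The CT15 mouse at 58.0 was replicate 1, and its library held pancreas acinar transcripts at 4070 RPM, reads scaled to library size (13 of 14 acinar markers were listed), where the CT03 libraries held 35.8 to 49.4 and the other CT15 libraries 33.5 and 68.5. Without that library 970 genes were called. Albumin, the main marker of hepatocytes, took 7.59% to 8.30% of reads at CT03 and 8.80% to 10.9% at CT15, and mitochondrially encoded genes took 4.20% to 4.81%. The call count was 561 without CT03 replicate 2, 838 without CT03 replicate 3, 894 without CT15 replicate 2 and 931 without CT03 replicate 1, and 518 of the 1424 genes passed without each library in turn. Of the 142 called genes that are named here, 87 did so. Where a call is said below to be lost without 1 library, that library gave the highest adjusted p. Such a call may be lost without other libraries too. The calls of Cdo1, Dnaja1, Ern1, G6pc, Gpt, Hspa5, Klf9, Nr1i3, Selenos, Slc1a5 and Ugt1a6a were each lost without any 1 of 5 libraries. The library codes of CT15 replicates 1 and 2 lie in another number range than those of the other 4 libraries. No source used here says what the codes stand for. The codes of WT Control CT15 replicates 2 and 3 and of all KO LeuD libraries lie in that range too, and those of WT Control CT03 do not. In WT the codes thus go partly with time on both diets, and on LeuD partly with genotype. Their part in the comparisons of diets and genotypes was not tested. With CT15 represented by replicate 3 alone, a comparison added after the data were seen in which the 3 CT03 mice alone give the spread and the lone CT15 mouse is assumed to vary like them, 667 genes were called and 529 of them were among the 1424.

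**Figure D1:**
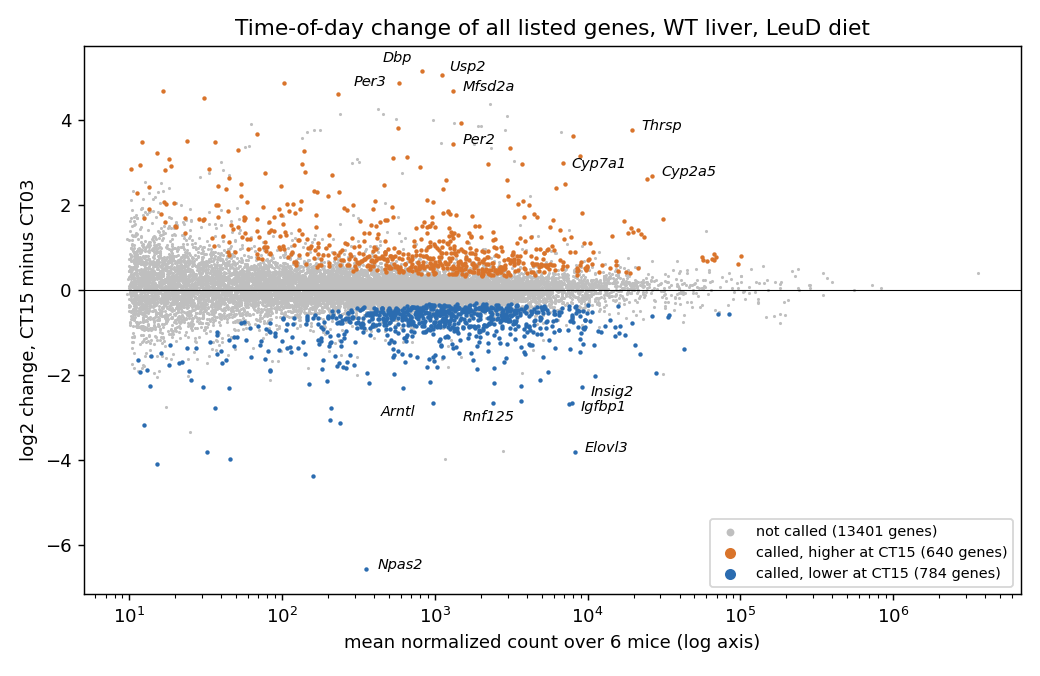
Change between times of every listed gene (vertical axis, log2, CT15 minus CT03) against its mean normalized count over 6 mice (horizontal log axis), 1 point per gene. Orange points are the 640 genes called higher at CT15, blue points the 784 called lower and grey points those not called. Dbp, at 5.15, and Npas2, at -6.57, lie at the ends of the range.

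Among the 5 clock activators, 3 were called lower at CT15, beside 5.29% of all genes, and the median change was -0.85. Npas2 (ENSMUSG00000026077), the partner that can stand in for CLOCK, had normalized counts of 556, 713 and 826 at CT03 and 9.22, 4.21 and 6.16 at CT15. It was almost silent in every CT15 mouse and the decrease was the largest of any called gene (log2 change -6.57 ± 0.28, adjusted p = 1.8e-05). Arntl (ENSMUSG00000055116) had 1630.2, 1517 and 1829 at CT03 and 222, 511 and 156 at CT15. All CT15 mice lay far below all CT03 mice (log2 change -2.66 ± 0.36, adjusted p = 0.00405), with replicate 2 the highest of them. Clock itself, with 1737, 2333 and 2407 at CT03 and 1108, 1428 and 1052 at CT15, fell less (log2 change -0.85 ± 0.16, adjusted p = 0.0151), and that call was lost without CT03 replicate 2 (adjusted p = 0.0721) and without CT03 replicate 3. For Rora, the gene of an activator at RORE sequences, the change was -0.25 ± 0.10 (adjusted p = 0.173), which did not pass, although the 3 CT15 mice lay below the 3 CT03 mice.

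The repressors were mostly high at CT15, where 8 of 11 were called higher and 2 lower, with a median of 1.99. Of all genes 4.32% were called higher and 5.29% lower. Per2 (ENSMUSG00000055866) had 206, 225 and 244 at CT03 and 2723, 2331 and 2204 at CT15 and the lowest p of all genes (log2 change 3.42 ± 0.12, adjusted p = 9.78e-06). Its mice varied little within each time. Per3, whose printed promoter holds the D-boxes, had 51.2, 27.1 and 40.0 at CT03 and 1217, 1173 and 1005 at CT15, a 28.7-fold difference of means (log2 change 4.85 ± 0.22, adjusted p = 1.98e-05). Per1 had 93.9, 208 and 338 at CT03 and 1454, 1349 and 1381 at CT15. The CT15 mice agreed closely while the CT03 mice ranged widely without reaching them (log2 change 2.89 ± 0.38, adjusted p = 0.00342). Of the cryptochromes, Cry2 had 972, 933 and 960.2 at CT03 and 1759.9, 1653 and 1793 at CT15, with no overlap (log2 change 0.86 ± 0.09, adjusted p = 0.00102). Cry1 had 994, 1441 and 1018 at CT03 and 1219, 1547 and 1022 at CT15, and these overlapped (log2 change 0.13 ± 0.19, adjusted p = 0.707). Cry1 was the only repressor of the list that was not called.

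Ciart (ENSMUSG00000038550), a corepressor of the BMAL1 complex also called CHRONO, had 16.0, 20.8 and 14.0 at CT03 and 456, 299.7 and 590.5 at CT15 and rose 26.5-fold in its means (log2 change 4.61 ± 0.28, adjusted p = 0.000104). Bhlhe40 and Bhlhe41, the DEC repressors that compete for E-boxes, rose as well. Bhlhe40 had 1664, 1559.8 and 1569 at CT03 and 9894, 5573 and 4675 at CT15, with CT15 replicate 1 well above its mates (log2 change 1.99 ± 0.24, adjusted p = 0.00219). Bhlhe41 had 12.8, 17.7 and 15.8 at CT03 and 80.9, 84.1 and 110.0 at CT15, low at both times but without overlap (log2 change 2.49 ± 0.25, adjusted p = 0.00109). The members of the RORE arm went in opposite directions. Nr1d2 had 814, 938 and 1288 at CT03 and 2849, 2264 and 2142 at CT15 (log2 change 1.27 ± 0.18, adjusted p = 0.00458). Nr1d1 had 1570.4, 1209 and 1605 at CT03 and 465, 526 and 1002 at CT15, with every CT15 mouse below (log2 change -1.21 ± 0.27, adjusted p = 0.027), and it lost its call without any 1 of 5 libraries (adjusted p up to 0.0844, without CT15 replicate 2; CT15 replicate 3 was the exception). Nfil3 (ENSMUSG00000056749), the repressor at D-boxes, had 2845, 2489.6 and 2326 at CT03 and 864, 1021 and 840.4 at CT15. It was lower in every CT15 mouse (log2 change -1.49 ± 0.12, adjusted p = 0.000323).

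**Figure D2:**
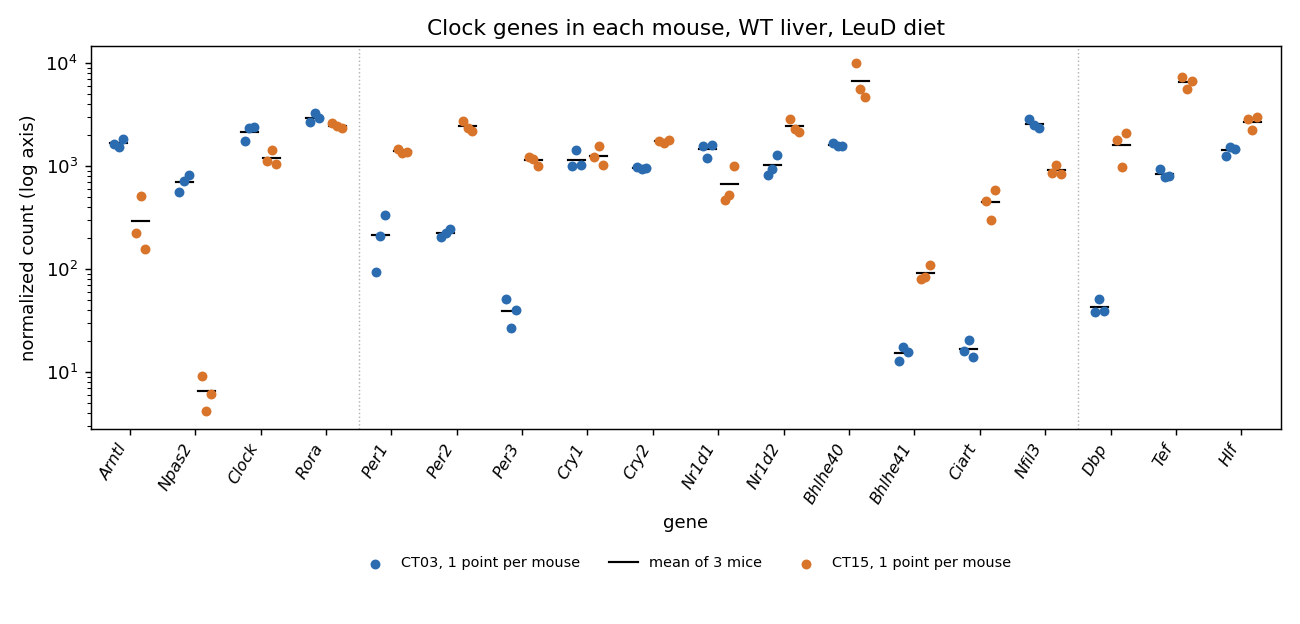
Normalized counts (vertical log axis) of 18 clock genes in the 3 CT03 mice (blue) and the 3 CT15 mice (orange), 1 point per mouse, with short bars at the means. Dotted lines part activators, repressors and the D-box activators Dbp, Tef and Hlf, and the points of Cry1 overlap while those of Npas2, Per3 and Dbp lie over 10-fold apart.

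The output genes of the clock were called higher in 8 of 15 cases and lower in none, beside 4.32% and 5.29% of all genes. The median of the list was 0.91. A negative change was seen for 6 of the 15, and for 4 every CT15 mouse lay below every CT03 mouse. DESeq2, an alternative test, called 2 of the 15 lower. Among the genes called higher are the D-box activators. Dbp (ENSMUSG00000059824) had 38.4, 51.0 and 39.1 at CT03 and 1769, 982 and 2092 at CT15, the largest increase of any called gene with a mean of at least 50 (log2 change 5.15 ± 0.27, adjusted p = 4.57e-05). Tef had 939.9, 784 and 801 at CT03 and 7372, 5638 and 6681 at CT15 (log2 change 2.96 ± 0.12, adjusted p = 1.8e-05) and Hlf had 1264, 1537 and 1459 at CT03 and 2839, 2252 and 2957 at CT15 (log2 change 0.91 ± 0.13, adjusted p = 0.00469), so that all 3 activators were higher in every CT15 mouse, where their competitor Nfil3 was lower. Usp2, a deubiquitinase gene driven by the clock, had 77.9, 55.2 and 59.5 at CT03 and 2509.8, 1733 and 2226 at CT15 (log2 change 5.05 ± 0.18, adjusted p = 9.78e-06). Wee1, the kinase gene that holds cells before mitosis and carries E-boxes, had 92.8, 68.7 and 69.8 at CT03 and 1168, 1061 and 999.7 at CT15 (log2 change 3.80 ± 0.15, adjusted p = 1.64e-05). Noct encodes nocturnin, a phosphatase of NADP, and had 260.3, 208 and 92.1 at CT03 and 4158, 2086 and 2071 at CT15. Its CT15 replicate 1 had close to the sum of the other two, and no value overlapped with CT03 (log2 change 3.93 ± 0.40, adjusted p = 0.00108). These calls of the output genes all held without each library in turn.

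The clock changes were set beside those of WT mice on the Control diet, whose 6 libraries have their own table, where 212 of 14967 genes were called (1.42%). The difference between the diets was tested in 1 limma fit of the 12 libraries, in which 1 gene of 14567 passed (0.00686%) and 958 had an unadjusted p under 0.05. The gene that passed was Nfil3. On the Control diet it had 1225, 1380.5 and 1519.9 at CT03 and 1269, 1248 and 1613 at CT15, which overlapped, and a change of -0.0028 (SE 0.13), against -1.49 ± 0.12 on LeuD (difference -1.49 ± 0.18, adjusted p = 0.0382). The difference did not pass in 10 of the 12 fits that left out a library. For the other clock genes the difference between diets did not pass. Dbp changed by 0.83 ± 0.66 on the Control diet and 5.15 ± 0.27 on LeuD (adjusted p of the difference 0.251). Arntl changed by -0.43 ± 0.22 and -2.66 ± 0.36 (adjusted p = 0.282), and Bhlhe41 by 0.44 ± 0.35 and 2.49 ± 0.25 (adjusted p = 0.273). Cry1 was called on the Control diet (1.26 ± 0.15, adjusted p = 0.018) and not on LeuD, where its change was 0.13 ± 0.19, and the difference of -1.12 ± 0.26 did not pass (adjusted p = 0.354). Cry2 (0.82 ± 0.11 on Control) was called on both diets, as were Per1, Per2, Per3, Ciart, Tef and Nr1d1. In the fit without Control CT03 replicate 2 the difference passed for 6 genes, among them Dbp, Per3, Tef and Nfil3. In the fit without LeuD CT15 replicate 2 it passed for 7, among them Arntl and Nfil3.

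**Figure D3:**
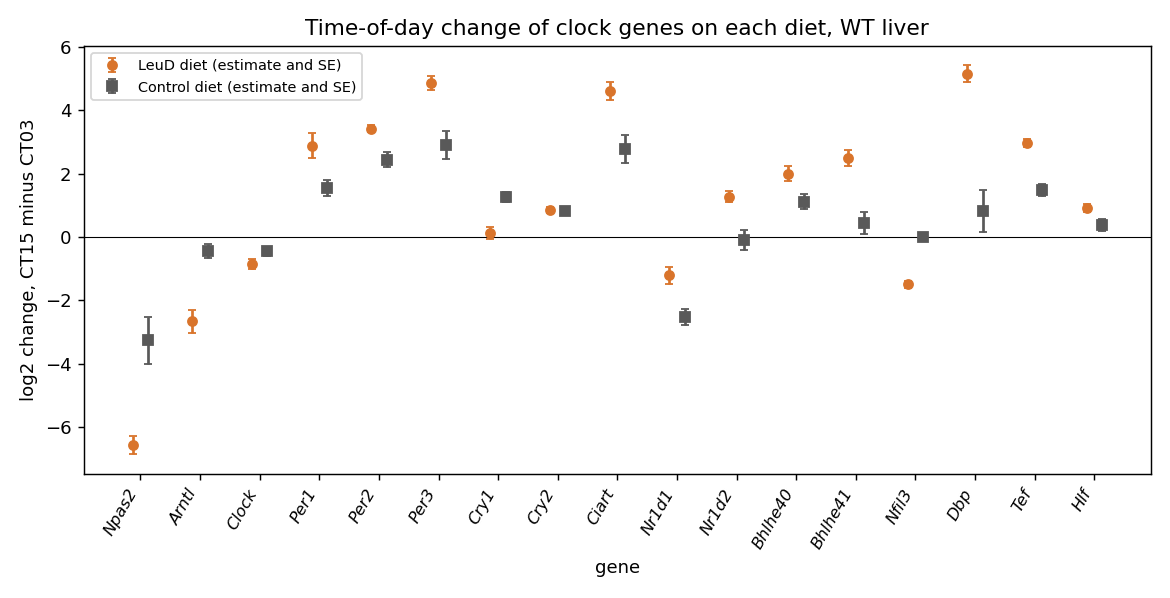
Change between times (log2, CT15 minus CT03) of 17 clock genes in WT liver on the LeuD diet (orange circles) and on the Control diet (grey squares), 3 mice per time and diet, with bars of 1 SE. Nfil3, at -1.49 on LeuD and at 0 on Control within its SE, is the gene whose difference between diets passed the test.

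The same comparison in KO mice on LeuD gave changes in the same direction for the leading clock genes. Dbp changed by 2.93 ± 0.44 in KO and Per2 by 3.19 ± 0.22, against 5.15 ± 0.27 and 3.42 ± 0.12 in WT. Npas2 changed by -5.01 ± 0.67 in KO against -6.57 ± 0.28 in WT. The difference between genotypes did not pass for any clock gene (adjusted p of 0.372 for Dbp, 0.81 for Per2, 0.576 for Npas2 and 0.455 for Cry1, which changed by 1.75 ± 0.51 in KO). Of the clock genes, Cry1 passed in the fit without KO CT03 replicate 3, with a WT change minus KO change of -2.28 (SE 0.33, adjusted p = 0.025). In the fit of all 12 libraries the difference between genotypes passed for 3 of 14492 genes (0.0207%), all of the major histocompatibility family. In that fit 1365 genes had an unadjusted p under 0.05.

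The called members of the P450, haem and glucuronidation lists were higher at CT15, while those of the glutathione list went both ways. In the list of xenobiotic receptors, haem synthesis and electron donors 5 of 19 were called, all higher, and 4 of 37 cytochrome P450 genes of families 1 to 3 were called, also higher. Over all genes 9.61% were called, 4.32% higher and 5.29% lower. Of the 37 P450 genes 13 had a negative change, none of them called. Por (ENSMUSG00000005514), the reductase that passes electrons to all microsomal P450 enzymes, had 6601, 7403 and 6692 at CT03 and 44315, 36528 and 44741 at CT15. Its CT15 mice lay 6.07-fold higher in the mean, with no overlap (log2 change 2.60 ± 0.12, adjusted p = 1.8e-05). Alas1 (ENSMUSG00000032786), the rate-limiting enzyme of haem synthesis, had 1447, 2070.0 and 1686 at CT03 and 25572, 12046 and 11101 at CT15. CT15 replicate 1 was the highest by far, and the other CT15 mice still lay above all CT03 mice (log2 change 3.13 ± 0.29, adjusted p = 0.000776). Cyp2a5, the coumarin hydroxylase whose D-box is printed above, had 6154, 8433 and 6613 at CT03 and 56073, 35606 and 45399 at CT15 (log2 change 2.68 ± 0.18, adjusted p = 0.00018). Its near copy Cyp2a4 had 26.7, 14.6 and 27.9 at CT03 and 518, 145 and 77.4 at CT15 (log2 change 2.97 ± 0.61, adjusted p = 0.0213), and reads of this pair may be split between them. Cyp2b10, a target of the receptor CAR with a D-box in its window too, had 14.9, 14.6 and 10.2 at CT03 and 113, 33.7 and 44.0 at CT15 (log2 change 2.00 ± 0.45, adjusted p = 0.0296), and CT15 replicate 1 was the highest mouse for both. The receptor genes themselves moved less, Nr1i2 (PXR) by 0.67 ± 0.09 (adjusted p = 0.00444) and Nr1i3 (CAR) by 0.45 ± 0.10 (adjusted p = 0.0327). Of 25 glucuronosyl and sulfotransferase genes 3 were called higher and none lower, and 7 had a negative change. Papss2, which makes the sulfate donor of sulfotransferases, rose by 0.90 ± 0.12 (adjusted p = 0.00367), and Ugt2a3 and Ugt1a6a, which attach glucuronic acid, rose by 0.52 and 0.54 (adjusted p = 0.0226 and 0.0311). Of 28 glutathione genes and NRF2 targets 3 were called higher and 3 lower, and 1 each way without CT15 replicate 1. Gstt2 and Gstm4, both glutathione transferases, had 1016, 1177 and 808 at CT03 and 1873, 2312 and 1668 at CT15 (log2 change 0.97 ± 0.17, adjusted p = 0.00974) and 1175, 1119 and 994 at CT03 and 705, 729.9 and 662 at CT15 (log2 change -0.65 ± 0.10, adjusted p = 0.00742), respectively. Neither overlapped, Gstt2 with CT15 above and Gstm4 with CT15 below. Calls were lost without 1 library or another for Cyp2a4 and Ugt1a6a (adjusted p = 0.0852 and 0.113 without CT03 replicate 2), for Cyp2b10 and Ugt2a3 (0.0869 and 0.0701 without CT03 replicate 3) and for Nr1i3 (0.106 without CT15 replicate 2). Without CT15 replicate 1, in which acinar transcripts were high, 3 P450 genes and 4 of the receptor and haem list were called higher.

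Of the 24 listed genes of bile acid synthesis and transport, 3 were called higher and 4 lower, beside 4.32% and 5.29% of all genes. Cyp7a1 (ENSMUSG00000028240), which catalyses the limiting step from cholesterol to bile acids, had 752, 2368 and 1868 at CT03 and 10387, 15560.4 and 10219 at CT15. Every CT15 mouse had over 4 times the highest CT03 value (log2 change 2.98 ± 0.38, adjusted p = 0.00291). Nr0b2, which encodes SHP, a repressor of Cyp7a1, went the other way with 1701, 1720.1 and 1557 at CT03 and 827, 763 and 706 at CT15 (log2 change -1.12 ± 0.10, adjusted p = 0.000647). The bile salt export pump gene Abcb11 had 29676, 35929.9 and 31104 at CT03 and 12604, 13776 and 8270.3 at CT15, and the phospholipid exporter gene Abcb4 had 10303, 13498 and 13114 at CT03 and 6377, 7019 and 6399 at CT15. Both were lower in every CT15 mouse (log2 change -1.51 ± 0.19, adjusted p = 0.00269 and log2 change -0.89 ± 0.12, adjusted p = 0.00412). Hsd3b7, an early enzyme of both bile acid pathways, had 978, 1075 and 645 at CT03 and 242, 348 and 353 at CT15, lower in every CT15 mouse (adjusted p = 0.00528). Akr1d1, the steroid reductase of the same pathway, rose (log2 change 0.57 ± 0.12, adjusted p = 0.0209) and its call was lost without CT03 replicate 2 (adjusted p = 0.0638) and without CT15 replicates 1 or 2. In the cholesterol list 1 of 26 was called, Insig2 (ENSMUSG00000003721), which holds the sterol sensor SCAP in the endoplasmic reticulum. It had 12791, 14032 and 18825 at CT03 and 2597, 3558 and 3138 at CT15, with the CT15 mice far below (log2 change -2.29 ± 0.17, adjusted p = 0.00026). The median of the list was 0.41, beside 0.0099 for all genes.

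In the list of fatty acid and triglyceride synthesis 6 of 25 were called higher and 2 lower, beside 4.32% and 5.29% of all genes. The median of the list was 0.61. Thrsp (ENSMUSG00000035686), a lipogenic protein that responds to feeding, had 1928, 2458 and 3930.2 at CT03 and 33959.5, 31674 and 43538 at CT15, a 13.1-fold difference of means (log2 change 3.76 ± 0.24, adjusted p = 0.000145). Lpin1, the phosphatidate phosphatase of triglyceride synthesis, had 1354, 2092 and 2113 at CT03 and 14114, 4734 and 12739 at CT15. CT15 replicate 2 was well under its mates but above all CT03 mice (log2 change 2.38 ± 0.38, adjusted p = 0.00768). Fasn, the fatty acid synthase, had 9129, 12058 and 12669 at CT03 and 38576, 36317 and 18703 at CT15, and Srebf1, the transcription factor that induces it, had 9552, 5901 and 4859.7 at CT03 and 14431, 14218 and 13072 at CT15. Both were higher in every CT15 mouse (log2 change 1.41 ± 0.27, adjusted p = 0.0151 and log2 change 1.10 ± 0.22, adjusted p = 0.0184). Fads2, a desaturase gene, rose by 1.33 ± 0.23 (adjusted p = 0.00992) and Lpin2 by 0.61 ± 0.11 (adjusted p = 0.0124). Acly and Elovl6, which supply acetyl-CoA and elongate fatty acids, had CT15 mice above all CT03 mice but did not pass (0.89 ± 0.25, adjusted p = 0.0641, and 1.40 ± 0.41, adjusted p = 0.0705). Elovl3, the elongase of very long fatty acids, had 21684, 18031 and 5852 at CT03 and 210.0, 2463 and 1599.8 at CT15. The spread within each time was wide and the groups still did not overlap (log2 change -3.81 ± 0.86, adjusted p = 0.0295). Mlxipl, the gene of the carbohydrate sensor ChREBP, fell by 0.50 on the log2 scale (adjusted p = 0.0161). Without CT03 replicate 2 the calls of Srebf1, Fasn, Elovl3 and Mlxipl were lost (adjusted p = 0.0798, 0.0535, 0.108 and 0.0822).

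Genes that respond to insulin and to fasting were called in both directions, 3 higher and 3 lower of 20. Of all genes 4.32% were called higher and 5.29% lower. Igfbp1 (ENSMUSG00000020429), which insulin represses through FOXO1, had 9717, 14477 and 16420.3 at CT03 and 1908, 3128 and 1524 at CT15. Irs2, an insulin receptor substrate gene with the same control, had 2446, 2975 and 3439.8 at CT03 and 542, 956 and 979 at CT15. Both were far lower in every CT15 mouse (log2 change -2.66 ± 0.27, adjusted p = 0.00115 and log2 change -1.87 ± 0.23, adjusted p = 0.00248). G6pc, the last step of glucose release, fell less (log2 change -0.86 ± 0.22, adjusted p = 0.047), while Pck1, the first step of gluconeogenesis, had overlapping groups (log2 change 0.46 ± 0.25, adjusted p = 0.298). Glycogen genes also went both ways. Gys2, the liver glycogen synthase, had 3450.3, 4091 and 4793 at CT03 and 14985, 13559 and 13951 at CT15 (log2 change 1.80 ± 0.13, adjusted p = 0.000228). Ppp1r3b, which targets the phosphatase that activates it, had 8882, 13461 and 11179 at CT03 and 33975, 29045 and 22615 at CT15 (log2 change 1.35 ± 0.19, adjusted p = 0.00449). Ppp1r3c, another targeting subunit, was lower with 8423, 5241 and 4819 at CT03 and 1918, 3773 and 1976 at CT15 (log2 change -1.30 ± 0.29, adjusted p = 0.0284). The bifunctional enzymes of glycolysis control rose, Pfkfb1 by 0.90 ± 0.11 and Pfkfb3 by 1.52 ± 0.25 (adjusted p = 0.0024 and 0.00823). In the glycolysis and glycogen list 4 of 24 were called higher and 1 lower.

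Of 34 genes of fatty acid oxidation and PPARα targets, 3 were called higher and 4 lower, beside 4.32% and 5.29% of all genes. The median of the list was -0.02, and none of its calls held without each library in turn. Pdk4, the kinase that shuts off pyruvate oxidation in fasting, had 1041, 572 and 678 at CT03 and 268, 408 and 204 at CT15 (log2 change -1.39 ± 0.28, adjusted p = 0.0203). Plin2, which coats lipid droplets, had 25463, 22914 and 13727 at CT03 and 8277, 9007 and 11082 at CT15 (log2 change -1.09 ± 0.23, adjusted p = 0.0211). Vnn1, a pantetheinase gene, fell by 0.72 on the log2 scale (adjusted p = 0.0493). The receptor gene Ppara itself rose by 0.57 ± 0.14 (adjusted p = 0.04). So did the thioesterase genes Acot3 and Acot4 (2.58 ± 0.54 and 0.86 ± 0.18, adjusted p = 0.0226 and 0.0214). Without CT03 replicate 2 the adjusted p was 0.0891 for Plin2, 0.157 for Vnn1, 0.129 for Ppara and 0.14 for G6pc. Without CT03 replicate 1 it was 0.0559 for Pdk4, without CT03 replicate 3 it was 0.0533 for Acot3 and 0.0643 for Acot4, and without CT15 replicate 1 it was 0.0788 for Ppp1r3c.

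**Figure D4:**
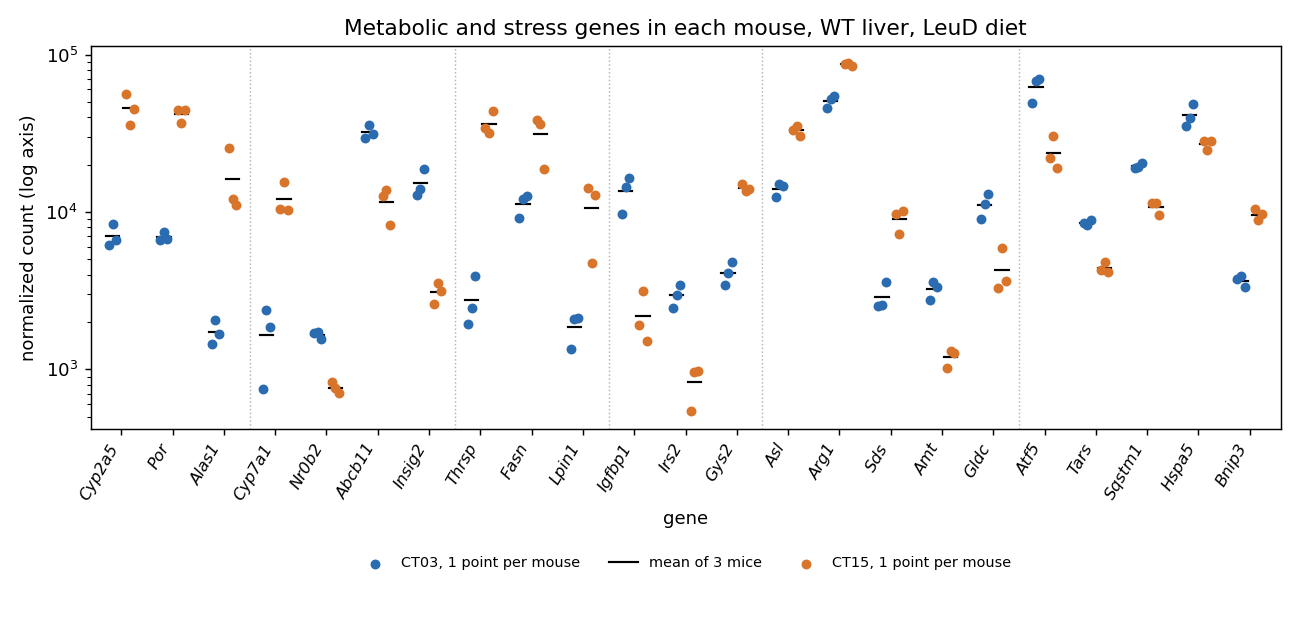
Normalized counts (vertical log axis) of 23 metabolic and stress genes in the 3 CT03 mice (blue) and the 3 CT15 mice (orange), 1 point per mouse, with short bars at the means. Dotted lines part drug and haem genes, sterol genes, lipid synthesis, insulin and glycogen genes, amino acid genes and stress genes. No gene shown has overlapping groups, and the smallest gaps are those of Fasn and Hspa5.

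In the urea cycle, which disposes of amino acid nitrogen, 3 of 8 genes were called, all higher, beside 4.32% of all genes. The median of the list was 0.51. Asl (ENSMUSG00000025533), argininosuccinate lyase, had 12497, 15023 and 14576 at CT03 and 33339.8, 35311 and 30531 at CT15 (log2 change 1.24 ± 0.12, adjusted p = 0.000776). Arg1, arginase, had 45946, 52165 and 54253 at CT03 and 87581, 87938 and 85118 at CT15 (log2 change 0.78 ± 0.13, adjusted p = 0.00795). The CT15 mice of both agreed closely and lay above all CT03 mice. Slc25a13, the aspartate carrier, rose by 0.55 ± 0.10 (adjusted p = 0.0158) and lost the call without CT15 replicate 2 (adjusted p = 0.0515). Cps1, the entry step, and Ass1 had all CT15 mice above without passing (0.55 ± 0.18, adjusted p = 0.0929, and 0.48 ± 0.20, adjusted p = 0.186).

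Amino acid breakdown went both ways, with 8 of 40 genes called higher and 5 lower, beside 4.32% and 5.29% of all genes. Sds (ENSMUSG00000029597), which turns serine into pyruvate, had 2543, 2572 and 3562 at CT03 and 9703, 7191 and 10199 at CT15 (log2 change 1.64 ± 0.17, adjusted p = 0.00124). Prodh, the first enzyme of proline oxidation, had 5616, 5102 and 5284 at CT03 and 8233, 10600.4 and 11057 at CT15 (log2 change 0.89 ± 0.13, adjusted p = 0.00449). Aass of lysine breakdown and Afmid of tryptophan breakdown rose by 0.59 ± 0.09 and 0.67 ± 0.12 (adjusted p = 0.00639 and 0.0126). Increases that each lost the call without CT15 replicate 2 were those of Ahcy and Tat, of S-adenosylhomocysteine and tyrosine (0.60 and 0.72, adjusted p = 0.0332 and 0.0362, and 0.108 and 0.119 without that library). Ahcy lost the call without any 1 of the 6 libraries, and Tat without any 1 of 5. Gpt, the alanine aminotransferase, rose by 0.58 (adjusted p = 0.0242) and lost the call without CT03 replicate 2 (adjusted p = 0.102).

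The genes that fell served glycine, histidine and cysteine. Amt, a part of the glycine cleavage system, had 2773, 3599 and 3325 at CT03 and 1016, 1301 and 1263 at CT15 (log2 change -1.44 ± 0.13, adjusted p = 0.000776). Gldc, the glycine decarboxylase of the same complex, had 8976, 11255 and 12938 at CT03 and 3308, 5938 and 3641 at CT15 (log2 change -1.40 ± 0.22, adjusted p = 0.00749). Both were lower in every CT15 mouse. Hal, the first enzyme of histidine breakdown, had 16832, 17255 and 18121 at CT03 and 9514, 11369 and 11256 at CT15, and Amdhd1, further down the pathway, had 11942, 12462 and 11691 at CT03 and 5272, 6123 and 6459 at CT15. These too did not overlap (log2 change -0.70 ± 0.11, adjusted p = 0.00572 and log2 change -1.02 ± 0.10, adjusted p = 0.00108). Cdo1, the cysteine dioxygenase, fell by 0.57 on the log2 scale (adjusted p = 0.0248, and 0.0893 without CT03 replicate 2).

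In leucine's own pathway, branched-chain amino acid breakdown, 2 of 23 were called higher and none lower, with a median of 0.02. Of all genes 9.61% were called, 4.32% higher and 5.29% lower. Neither call of this list held without each library in turn. Dbt, the transacylase core of the branched-chain ketoacid dehydrogenase, had 3855, 4386 and 4032 at CT03 and 5286, 6096 and 5255 at CT15 (log2 change 0.44 ± 0.10, adjusted p = 0.0306; adjusted p = 0.0992 without CT15 replicate 2). Of 22 amino acid transporters 5 were called higher and 1 lower, again with none that held throughout. Slc38a3, the glutamine transporter of the liver, had 44872, 42369.9 and 44091 at CT03 and 72929, 64139.8 and 74845 at CT15 (log2 change 0.69 ± 0.12, adjusted p = 0.0114; adjusted p = 0.064 without CT03 replicate 2). Slc1a2, a glutamate transporter, rose by 0.66 ± 0.14 (adjusted p = 0.0212, and 0.0675 without CT03 replicate 3). Slc7a5, a carrier of leucine and other large neutral amino acids, had 138, 136 and 141 at CT03 and 194, 209 and 196 at CT15, which did not overlap (log2 change 0.52 ± 0.13, adjusted p = 0.0409). Its call was lost without any 1 of the 6 libraries (adjusted p up to 0.141, without CT03 replicate 2). Slc1a5, a glutamine carrier, rose by 0.94 ± 0.21 (adjusted p = 0.0269, and 0.0893 without CT15 replicate 2).

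Of 30 listed genes of the integrated stress response, 4 were called, 2 higher and 2 lower, beside 9.61% of all genes called. Atf5 (ENSMUSG00000038539), a transcription factor of this response, had 49217, 67739.6 and 69447 at CT03 and 22169.8, 30246 and 18921 at CT15 and was lower in every CT15 mouse (log2 change -1.40 ± 0.20, adjusted p = 0.00519). Atf4 had 4816, 4738 and 4252 at CT03 and 5416, 4226 and 2856 at CT15, which overlapped (log2 change -0.19 ± 0.20, adjusted p = 0.615). Among the targets of ATF4, Asns, the asparagine synthetase, had 525, 318 and 448 at CT03 and 553, 862 and 638 at CT15 and Trib3, a pseudokinase gene, had 452, 640.4 and 1602 at CT03 and 268, 334 and 391 at CT15. The groups did not overlap for either, Asns with CT15 above and Trib3 with CT15 below, and neither passed (log2 change 0.67 ± 0.22, adjusted p = 0.0916 and log2 change -1.24 ± 0.40, adjusted p = 0.0924). Ddit3, the gene of CHOP, overlapped (log2 change 0.42 ± 0.25, adjusted p = 0.335). The 2 subunits that direct the phosphatase of eIF2 were called in opposite directions, and neither call held without each library in turn. Ppp1r15b, the constitutive one, rose by 0.58 ± 0.13 (adjusted p = 0.0312). It lost the call without any 1 of 5 libraries (adjusted p up to 0.0892, without CT03 replicate 1). Ppp1r15a, the stress-induced one, fell by 0.44 on the log2 scale (adjusted p = 0.0451). That call was lost without any 1 of the 6 libraries (adjusted p up to 0.156, without CT03 replicate 2).

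Of the 4 eIF2 kinases, the gene of GCN2 was not called. Eif2ak4 had 331, 336 and 317 at CT03 and 323, 353 and 331 at CT15 (log2 change 0.03 ± 0.11, adjusted p = 0.885). Eif2ak3 (ENSMUSG00000031668), which encodes PERK of the endoplasmic reticulum, had 708, 941 and 930.4 at CT03 and 462, 515 and 473 at CT15 and was the 1 kinase called (log2 change -0.82 ± 0.13, adjusted p = 0.00791). For Eif2ak1 (HRI) the change was -0.21 ± 0.09 and for Eif2ak2 (PKR) -0.09 ± 0.11 (adjusted p = 0.204 and 0.677). Of 20 cytosolic aminoacyl-tRNA synthetases, which load amino acids onto transfer RNA, 2 were called, both lower, beside 9.61% of all genes called. Their median change was -0.08, and 17 of 20 changes were negative, beside 7234 of 14825 over all genes. Tars, for threonine, had 8461, 8208 and 8914 at CT03 and 4279, 4826 and 4143 at CT15 (log2 change -0.95 ± 0.10, adjusted p = 0.00101). Sars, for serine, had 4421, 4532 and 5149 at CT03 and 3245, 3559 and 2887 at CT15 (log2 change -0.54 ± 0.11, adjusted p = 0.0191; adjusted p = 0.0689 without CT03 replicate 2). Of 26 regulators of mTORC1, the kinase complex that senses leucine, 1 was called higher and 3 lower, and none of the 4 calls held without each library in turn. Mtor fell by 0.39 and Akt1s1, an inhibitory subunit, by 0.43 on the log2 scale (adjusted p = 0.0258 and 0.0173, and 0.114 and 0.0851 without CT03 replicate 2). Fnip2, a partner of folliculin, rose by 0.76 ± 0.17 (adjusted p = 0.0301, and 0.089 without CT03 replicate 3).

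Of 26 listed genes of endoplasmic reticulum chaperones and the unfolded protein response, 9 were called lower and none higher, with a median of -0.35. Of all genes 5.29% were called lower and 4.32% higher. Both promoters printed here hold the endoplasmic reticulum stress element (CCAAT, any 9 bases, then CCACG, both strands), marked by capitals, which was found in 0.157% of the genes with a window and in 0.658% of those called lower (4 genes).
Hspa5 (chr2:34772000-34772069, plus strand): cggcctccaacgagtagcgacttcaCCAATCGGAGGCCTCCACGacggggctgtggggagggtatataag
Syvn1 (chr19:6046496-6046565, plus strand): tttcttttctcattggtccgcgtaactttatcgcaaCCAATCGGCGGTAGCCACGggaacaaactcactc
Syvn1 (ENSMUSG00000024807), the ubiquitin ligase that removes misfolded proteins, had 2758, 3545 and 3039 at CT03 and 1744, 1766 and 1777 at CT15 (log2 change -0.81 ± 0.11, adjusted p = 0.00338). Pdia4, a disulfide isomerase, had 11155, 11982 and 14050.5 at CT03 and 7192, 5934 and 7195 at CT15 (log2 change -0.87 ± 0.12, adjusted p = 0.00481). Hyou1, a large chaperone, had 7083, 9048 and 9654 at CT03 and 4826, 3930.3 and 4618 at CT15 (log2 change -0.94 ± 0.14, adjusted p = 0.0053). None of the 3 had overlapping groups, and their calls held without each library in turn. Hspa5, the main chaperone BiP, had 35371, 39454 and 48552 at CT03 and 28355, 24668 and 28195 at CT15 (log2 change -0.59 ± 0.14, adjusted p = 0.0376). Manf and Sdf2l1, which act with BiP, fell by 0.86 and 0.91, Selenos by 0.41 and Ern1, the stress sensor IRE1, by 0.78 on the log2 scale (adjusted p = 0.0114, 0.0209, 0.0238 and 0.0417). Calls were lost without CT15 replicate 2 for Hspa5 and Selenos (adjusted p = 0.127 and 0.0833), without CT03 replicate 2 for Manf and Ern1 (0.0579 and 0.124) and without CT03 replicate 3 for Sdf2l1 (0.07). Without CT15 replicate 1 the list had 6 members called lower. With CT15 represented by replicate 3 alone, where the CT03 mice give all of the spread, 2 members were called lower and 1 higher.

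Of 22 heat shock chaperones 4 were called higher and none lower, and 19 had a positive change. Of all genes 4.32% were called higher and 5.29% lower, and 7591 of 14825 changes were positive. Hspa1b, the inducible HSP70, had 199.5, 192 and 198 at CT03 and 1186, 486 and 362 at CT15, and CT15 replicate 1 was well above its mates (log2 change 1.59 ± 0.37, adjusted p = 0.0328). Its near copy Hspa1a had 19.2, 20.8 and 28.8 at CT03 and 88.1, 45.2 and 40.5 at CT15 and did not pass (log2 change 1.23 ± 0.35, adjusted p = 0.0611), and reads of the pair may be split between them. Dnaja1 and Hspb8 rose by 0.68 ± 0.15 and 0.56 ± 0.12 (adjusted p = 0.0287 and 0.0224). None of the heat shock calls held without each library in turn, with adjusted p of 0.108 for Hspa1b and 0.0978 for Hspb8 without CT03 replicate 2 and 0.0875 for Dnaja1 without CT03 replicate 3, and 1 member was called without CT15 replicate 1. Rbm3 (ENSMUSG00000031167), an RNA-binding protein induced by cold, had 1338, 927 and 1320.3 at CT03 and 2724, 2774 and 2875 at CT15, all CT15 mice above (log2 change 1.24 ± 0.14, adjusted p = 0.00184), whereas Cirbp, the other cold-inducible protein of the list, had all CT15 mice below and did not pass (log2 change -0.60 ± 0.22, adjusted p = 0.139).

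Autophagy genes were called lower in 8 of 33 cases and higher in 1, beside 5.29% and 4.32% of all genes. Sqstm1 (ENSMUSG00000015837), the cargo receptor p62, had 18916, 19351 and 20363 at CT03 and 11375, 11413 and 9505 at CT15 (log2 change -0.86 ± 0.11, adjusted p = 0.00265). Atg13, a subunit of the initiating kinase complex, had 2423, 3152 and 2740.1 at CT03 and 1487, 1350.4 and 1768 at CT15 (log2 change -0.85 ± 0.13, adjusted p = 0.00704). Every CT15 mouse lay below every CT03 mouse for both. Gabarapl1, a lipid-bound autophagosome protein, and Atg101 fell by 0.73 and 0.56 on the log2 scale (adjusted p = 0.0146 and 0.0152). Pik3c3, the lipid kinase of autophagy, fell by 0.45 (adjusted p = 0.0203). Without CT03 replicate 2 these last 3 lost the call (adjusted p = 0.0632, 0.0709 and 0.0893). The exception was Bnip3 (ENSMUSG00000078566), a receptor for the removal of mitochondria, with 3750.1, 3914 and 3312 at CT03 and 10375, 8825 and 9677 at CT15 (log2 change 1.40 ± 0.10, adjusted p = 0.000294).

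In the growth hormone and IGF axis 1 of 16 genes was called higher and 3 lower, beside 4.32% and 5.29% of all genes. Stat5b (ENSMUSG00000020919), which carries the growth hormone signal to the nucleus, had 4159, 4956 and 4822 at CT03 and 2206, 2361 and 1682 at CT15 (log2 change -1.17 ± 0.14, adjusted p = 0.00219). Stat5a had 835, 1044 and 905 at CT03 and 512, 581 and 475 at CT15 (log2 change -0.83 ± 0.12, adjusted p = 0.00576). The CT15 mice of both lay well below the CT03 mice. Igf1 rose by 0.51 ± 0.13 (adjusted p = 0.0418) and lost the call without any 1 of the 6 libraries (adjusted p up to 0.111, without CT15 replicate 2). Genes with a known sex bias in mouse liver, many of them growth hormone targets, moved widely, and no source used here gives the sex of the mice. Of 11 listed female-biased genes 3 were called higher and none lower, with a median of 2.04, and of 17 male-biased genes 2 were called lower and none higher, with a median of -0.44. Fmo2, a flavin monooxygenase, had 395, 459 and 548 at CT03 and 6603, 2738 and 2589.9 at CT15 (log2 change 2.96 ± 0.33, adjusted p = 0.00149). Hsd3b5, a male-biased steroid dehydrogenase, had 15273, 12449 and 9479 at CT03 and 509, 2678 and 5024 at CT15 (log2 change -2.68 ± 0.70, adjusted p = 0.048). Its call was lost without any 1 of 4 libraries (adjusted p up to 0.138, without CT03 replicate 2). Neither edgeR nor DESeq2 on the recovered reads called Hsd3b5, and the authors' adjusted p did not pass. Cux2, a female-biased transcription factor, had 23.5, 43.7 and 42.8 at CT03 and 1430.0, 219.8 and 89.8 at CT15 and did not pass (log2 change 3.07 ± 0.84, adjusted p = 0.0565). In each of these, CT15 replicate 1 stood farthest from the CT03 mice. All 11 major urinary protein genes, near-identical copies whose reads are uncertain, had negative changes with a median of -0.98, and none passed in limma, where 6 had an unadjusted p under 0.05. edgeR on the recovered reads called 0 of them and DESeq2 0. Mup7 had 38146, 47447 and 49882 at CT03 and 2567, 16913 and 33045 at CT15 (log2 change -1.99 ± 0.77, adjusted p = 0.15), and CT15 replicate 1 was again the lowest.

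Genes that glucocorticoids induce and the metallothioneins were called higher in 6 of 16 cases and lower in 2. Of all genes 4.32% were called higher and 5.29% lower. Fkbp5 (ENSMUSG00000024222), a chaperone of the glucocorticoid receptor, had 1068, 1662 and 1582 at CT03 and 6833, 4313 and 7220.4 at CT15 (log2 change 2.08 ± 0.23, adjusted p = 0.00144). The metal-binding proteins Mt1 and Mt2 had 1115, 569 and 903 at CT03 and 4102, 4736 and 6413 at CT15, and 146, 85.4 and 155 at CT03 and 659.7, 1059 and 1842 at CT15, respectively. Neither overlapped, and CT15 replicate 3 was the highest mouse for both (log2 change 2.59 ± 0.25, adjusted p = 0.000879 and log2 change 3.11 ± 0.36, adjusted p = 0.0019). Zbtb16 and Dusp1 rose by 1.72 ± 0.31 and 0.98 ± 0.17 (adjusted p = 0.0124 and 0.01, and 0.0588 for Zbtb16 without CT03 replicate 2). Klf9 and Cdkn1a, which glucocorticoids can also induce, fell. Klf9 fell by 0.73 (adjusted p = 0.0403, and 0.145 without CT03 replicate 2). Cdkn1a (ENSMUSG00000023067), the cell cycle inhibitor p21, had 1152, 1631 and 1692 at CT03 and 186, 547 and 337 at CT15, far lower in every CT15 mouse (log2 change -2.17 ± 0.34, adjusted p = 0.00705). In the cell cycle list 4 of 26 were called higher, among them Rrm2, the ribonucleotide reductase subunit, with 121, 144 and 221 at CT03 and 507, 422 and 517 at CT15 (log2 change 1.61 ± 0.22, adjusted p = 0.00393), and Ccne2, a cyclin of S phase entry (log2 change 1.18 ± 0.23, adjusted p = 0.0165; adjusted p = 0.0615 without CT15 replicate 2).

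Of 18 genes of NAD and polyamine metabolism 6 were called, all higher, beside 4.32% of all genes. All 6 calls held without each library in turn. Nampt (ENSMUSG00000020572), the rate-limiting enzyme of NAD salvage, had 1415, 1358 and 1354 at CT03 and 6357, 4627 and 5797 at CT15 (log2 change 2.01 ± 0.12, adjusted p = 0.000119). Nmrk1, which makes NAD from nicotinamide riboside, had 506, 497 and 489 at CT03 and 1753, 1410.4 and 2157 at CT15 (log2 change 1.81 ± 0.15, adjusted p = 0.000401). For both, the lowest CT15 mouse lay far above the highest CT03 mouse. The polyamine enzymes rose less. Amd1 had 766, 784 and 798 at CT03 and 1741, 1526 and 1666 at CT15 (log2 change 1.07 ± 0.09, adjusted p = 0.000528), and Odc1, the rate-limiting decarboxylase, had 3458, 3604 and 3991 at CT03 and 5502, 7957 and 6783 at CT15 (log2 change 0.86 ± 0.14, adjusted p = 0.00776). Azin1, which protects that decarboxylase from its inhibitor, rose by 0.79 ± 0.11, and Nnmt, which methylates nicotinamide, by 0.97 ± 0.15 (adjusted p = 0.00367 and 0.00708).

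Some of the groups with housekeeping roles showed no calls. None of 80 cytosolic ribosomal protein genes was called, although 79 had a positive change, with a median of 0.16. Over all genes 7591 of 14825 changes were positive. None of 46 nuclear-encoded respiratory chain genes passed, with 44 positive and a median of 0.11, and none of 13 mitochondrially encoded genes passed, with 13 positive and a median of 0.25. At an unadjusted limma p under 0.05 the counts were 3 ribosomal protein genes, 4 nuclear-encoded respiratory chain genes and 0 mitochondrially encoded genes. On the recovered reads edgeR called 0 in each of these lists, and DESeq2 called 0 ribosomal, 2 respiratory chain and 1 mitochondrially encoded gene, all higher. The bars of called members per list show the spread of calls over the other lists, from 9 lower of the endoplasmic reticulum list to 8 higher of the clock outputs.

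**Figure D5:**
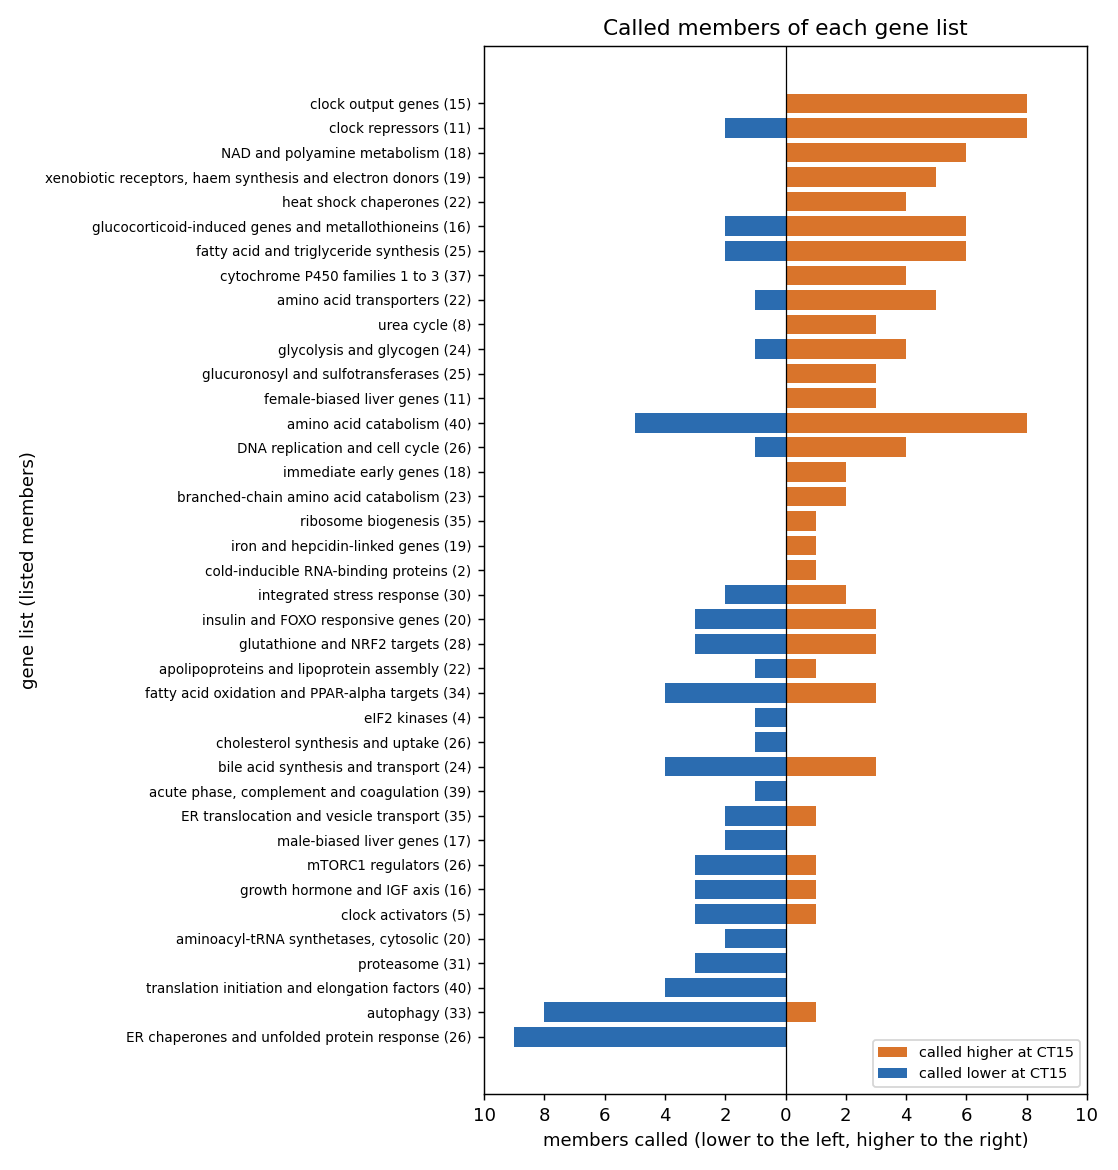
Number of members of each gene list called higher (orange, to the right) or lower (blue, to the left) at CT15, with the number of listed members in parentheses. Lists are ordered by the difference of the counts and lists with no call are left out, and over all 14825 genes 4.32% were called higher and 5.29% lower.

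Several of the largest changes lay outside these lists. Mfsd2a (ENSMUSG00000028655), a transporter of lysophospholipids, had 71.5, 132 and 82.8 at CT03 and 3539, 1339.9 and 2785 at CT15 (log2 change 4.67 ± 0.36, adjusted p = 0.000316). Upp2, a uridine phosphorylase of the liver, had 1002, 1472 and 1187 at CT03 and 16442, 11650.0 and 16621 at CT15 (log2 change 3.61 ± 0.18, adjusted p = 3.22e-05). Neither overlapped, and the means differed 26.7-fold and 12.2-fold. A pair of secreted factors of the liver rose as well. Tsku, tsukushi, had 218, 573 and 1331 at CT03 and 6391, 5249 and 4985 at CT15 (log2 change 3.32 ± 0.53, adjusted p = 0.00742), and Nrg4, neuregulin 4, had 99.2, 118 and 107 at CT03 and 1237, 672 and 949.5 at CT15 (log2 change 3.09 ± 0.21, adjusted p = 0.00018). Its CT03 mice agreed closely, while those of Tsku spread over a wide range. Cfd, the complement factor also called adipsin, was low throughout with 9.60, 7.29 and 3.72 at CT03 and 158, 107 and 21.1 at CT15 (log2 change 3.28 ± 0.70, adjusted p = 0.024; adjusted p = 0.0824 without CT15 replicate 2). It is known as a product of adipocytes. Of 5 adipocyte markers 2 were listed, and their sum was 1.75, 1.85 and 1.25 RPM at CT03 and 3.04, 2.78 and 3.44 RPM at CT15, higher in every CT15 mouse. Cidec, a lipid droplet protein, was called higher (log2 change 0.84 ± 0.22, adjusted p = 0.0483) and lost that call without any 1 of the 6 libraries (adjusted p up to 0.132, without CT03 replicate 3). The part of these markers in the change of Cfd was not tested.

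Among the largest decreases, Rnf125 (ENSMUSG00000033107), a ubiquitin ligase, had 6811, 5818 and 6160.4 at CT03 and 1043, 1125 and 883 at CT15 and a p among the 10 lowest (log2 change -2.63 ± 0.12, adjusted p = 1.8e-05). Chka, choline kinase of phosphatidylcholine synthesis, had 7117, 6169 and 4767 at CT03 and 1159.6, 1742 and 913 at CT15 (log2 change -2.27 ± 0.23, adjusted p = 0.00115). The groups lay several-fold apart for both. Asap2 had 945, 974 and 1191 at CT03 and 227, 237 and 164 at CT15 (log2 change -2.31 ± 0.17, adjusted p = 0.000247) and Rfx4, a transcription factor, had 341, 511 and 431 at CT03 and 27.7, 71.5 and 53.7 at CT15 (log2 change -3.13 ± 0.33, adjusted p = 0.00119). Both were low in all 3 CT15 mice. Loxl4, Spon2 and Rab36 fell by 3.07, 2.77 and 2.19 on the log2 scale (adjusted p = 0.00119, 0.00291 and 0.00405). Pitx3, a transcription factor, had 443, 308 and 137 at CT03 and 1.02, 50.5 and 19.4 at CT15 (log2 change -4.37 ± 1.03, adjusted p = 0.0349; adjusted p = 0.117 without CT03 replicate 2). Igha, the constant region of immunoglobulin A made by plasma cells, had 227, 251 and 263 at CT03 and 33.8, 51.5 and 80.1 at CT15 (log2 change -2.23 ± 0.29, adjusted p = 0.00291). Of the 11 lymphocyte markers limma, edgeR and DESeq2 called none, and 0 had an unadjusted limma p under 0.05. They summed to 8.11, 10.3 and 7.16 RPM at CT03 and 5.03, 5.78 and 11.01 at CT15, and their part in that decrease was not tested.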

How the data were processed

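Liver RNA was enriched for poly(A) and sequenced, per the labels' protocols, and the library kit is one that usually gives no strand information, so overlapping and antisense genes share their reads. The submitters' processing notes name STAR 2.5.2b, Trimmomatic 0.36, Subread 1.5.2 with featureCounts, DESeq and DESeq2, and the genome build GRCm39. Their settings, the annotation and the handling of reads that fit several genes are not stated in those sources, so values of near-identical genes are uncertain. The authors deposited 10 tables of 1 pair of groups each, of which 3 were used. Per the file headers, each table gives for every gene the log2 fold change, the p-value and adjusted p, and for 6 libraries a signal, which is the count divided by a size factor set in that table. Low values were multiples of 1 step per library, and 100% of the values of the LeuD table gave whole reads within 0.01. The lowest sum of reads over its 6 libraries was 61, and chi-square over degrees of freedom was 45.0 to 110.9 between mates, so no library was a copy of another. Of 36 gene names that were blank or turned into dates, 21 were restored by gene ID.

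The main test was limma 3.58.1 (R 4.3.3) on log2(normalized count + 1), with the variance trended on intensity, 2-sided, with 3 mice per time, no covariate and no filter. A change on this scale understates that of low genes. Differences between diets or genotypes were contrasts in 1 fit of the 12 libraries of both tables, over genes whose mean reached 10 in one. Alternatives were pseudocounts of 0.5 and 5, a mean of at least 10, TMM scaling, edgeR 4.0.16 and DESeq2 1.42.0 on the recovered reads, the authors' adjusted p, 12 WT libraries in 1 fit, a replicate block and each library left out. The 54 gene lists, 10 of them cell type markers, and the comparison itself were chosen with earlier results of these data known, and no list was tested as a set. Genes named were the 15 largest called increases and decreases (mean of 50 or more, established symbol), the 10 lowest p, and list members (in lists of over 25, at most 8 called each way and 4 not called). Some list members are counted in their lists but not reported here. Promoter windows are the 250 bases before each RefSeq start on GRCm38.p6, which is not the build of the counts, so symbols alone link them, for 10850 of 14825 genes.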

Additional observations from a re-analysis of the deposited data

Results flagged for a closer look

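The time effect differed between diets for Nfil3, the repressor at D-box elements, by a test of the difference itself. WT mice on LeuD had normalized counts of 2845, 2489.6 and 2326 at CT03 and 864, 1021 and 840.4 at CT15, and WT mice on Control had 1225, 1380.5 and 1519.9 at CT03 and 1269, 1248 and 1613 at CT15. The LeuD change minus the Control change was -1.49 (SE 0.18) on the log2 scale (adjusted p = 0.0382), and it passed in 2 of the 12 fits that left out a library.

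On LeuD the time effect differed between genotypes for 3 genes of the major histocompatibility family, whose reads are uncertain because these genes resemble each other. The WT change minus the KO change was 2.49 for H2-T22, 3.78 for H2-Eb1 and 2.36 for H2-T23 (adjusted p = 0.00347, 0.00347 and 0.00441). In WT the times overlapped for all 3, with changes of 0.20 ± 0.13, 0.16 ± 0.16 and -0.03 ± 0.13. In KO the changes were -2.29 ± 0.20, -3.63 ± 0.34 and -2.39 ± 0.21.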

How the results depend on the processing

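The 1424 calls numbered 1376 to 1564 under both pseudocounts, the minimum mean, TMM scaling, edgeR and 12 WT libraries in 1 fit, 2038 by DESeq2 and 2028 by the authors' deposited table, and the share of higher calls was 43.2% to 46.5% in these. Leaving out 1 library gave 561 to 1176. With CT15 represented by replicate 3 alone, where the CT03 mice give all of the spread, 667 were called, and with the replicate block 747. The block adds the replicate numbers of the labels, which name no shared animal. Same-numbered mice did not deviate together (correlations of -0.19, -0.10 and -0.22). With 3 mice per time, each set against the mean of its own group, these correlations cannot exclude a pairing. The test of the diet difference gave 0 to 7 genes with a library left out (0 in 10 of 12 fits, 7 without LeuD CT15 replicate 2, 6 without Control CT03 replicate 2), 0 with the replicate block and 1 otherwise. The genotype difference gave 3 to 36 (36 without KO CT03 replicate 3, 6 without KO CT15 replicate 2) and 2 with the replicate block. The cause of these moves was not tested, other than that fits with fewer libraries have less to estimate the spread from.

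Over the 160 named genes and their alternatives, 2204 values kept direction and side of the threshold, 327 lost the call, 23 gained it and 6 changed sign. Those 6 were of genes not called. Cry1 changed by -0.15 with CT15 by replicate 3 alone and by -0.023 to 0.31 with a library left out, Eif2ak4 by -0.0055 to 0.060 with a library left out, Eif2ak2 by 0.026 and Ddit3 by -0.14 with CT15 by replicate 3 alone, and Atf4 by -0.40 to 0.058 with a library left out. The most calls were lost with CT15 by replicate 3 alone (57), without CT03 replicate 2 (48), and without CT03 replicate 3 and with the replicate block (39 each). With 3 mice per time, small changes and genes with few reads, such as Npas2 at CT15, are limited by the spread between mice and by counting.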

Other observations

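Counts for some gene groups outside the accounts above follow. Over all 14825 genes 4.32% were called higher and 5.29% lower, and 7591 had a positive change. Of 23 interferon-stimulated genes none was called by limma, 17 had a negative change and the median was -0.31. Of 39 genes of the acute phase, complement and coagulation 1 was called lower, with a median of -0.05, and of 22 genes of apolipoproteins and lipoprotein assembly 1 was called higher and 1 lower. Of 31 proteasome genes 3 were called lower and none higher, and of 40 translation factors 4 were called lower and none higher. Of 35 ribosome biogenesis genes 1 was called, higher, with 30 positive changes and a median of 0.24.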
